A study of Homo sapiens with 6 samples.

Results

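TRAF adaptors and inhibitor of apoptosis (IAP) genes were examined in SNU-449 cells, a human hepatocellular carcinoma line, on 6 Affymetrix arrays. The members were TRAF1 to TRAF6, BIRC2 (cIAP1), BIRC3 (cIAP2) and XIAP, taken as every probe set whose platform annotation named 1 of these symbols and no other gene. This gave 20 probe sets of 7 genes among 54613 non-control probe sets. No probe set carried the symbol TRAF2 or BIRC3 alone in the annotation used, and these 2 of the 9 genes were not analysed here. The first group comprised 3 arrays from cells that received a USP48 lentivirus and were selected with puromycin as a stable population. USP48 is a ubiquitin-specific protease. The other 3 arrays held RNA of cells given the empty vector, genotype Ctrl. The sample titles call both kinds of cells transfected, and the labels state the puromycin selection and the medium with 10% fetal bovine serum in the same words for both groups, and they give neither the promoter that drives the transgene nor whether replicates were separate cultures. The p-values therefore measure the spread between these arrays, which may be technical.

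TRAF proteins bind the cytoplasmic tails of TNF receptors, or adaptors of interleukin-1 and Toll-like receptors, and assemble ubiquitin ligase complexes that start NF-κB and MAP kinase signalling. TRAF3, with TRAF2 and the cIAPs, keeps the kinase NIK at a low level and so holds the non-canonical NF-κB pathway in check. XIAP binds and blocks caspases, while the cIAPs act mainly as ubiquitin ligases at TNF receptor complexes. The arrays measure transcripts, so protein amounts and ubiquitin chains are outside these data.

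TRAF1 had the largest rise of the members and TRAF3 the largest fall, so the sequence at their RefSeq transcript starts (GRCh38.p14) is shown. Each window runs 5′ to 3′ from 250 bases before the start to 50 after it. The TRAF1 window is the one at the start of the gene, chr9:120929122-120929421 on the minus strand. The TRAF3 window is chr14:102777199-102777498 on the plus strand, and capitals mark a match to the NF-κB consensus.
TRAF1: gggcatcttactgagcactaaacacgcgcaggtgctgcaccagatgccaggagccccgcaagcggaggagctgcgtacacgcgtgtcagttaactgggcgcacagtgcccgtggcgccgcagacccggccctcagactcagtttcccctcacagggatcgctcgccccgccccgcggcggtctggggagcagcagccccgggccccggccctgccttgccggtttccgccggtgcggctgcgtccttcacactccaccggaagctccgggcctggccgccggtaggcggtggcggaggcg
TRAF3: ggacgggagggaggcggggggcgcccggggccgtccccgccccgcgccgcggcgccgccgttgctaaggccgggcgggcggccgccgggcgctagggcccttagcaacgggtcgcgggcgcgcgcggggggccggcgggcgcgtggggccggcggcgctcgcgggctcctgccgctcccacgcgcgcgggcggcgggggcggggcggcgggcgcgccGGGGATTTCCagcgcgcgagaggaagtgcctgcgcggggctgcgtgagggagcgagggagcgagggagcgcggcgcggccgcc
The NF-κB consensus, searched on both strands, had 1 match in the TRAF3 window, starting at position -33 relative to the transcript start, and 0 in the 3 TRAF1 windows of the table. Of 35116 promoter windows of this length, 11.3% held a match. The single TRAF3 match was also the only one in the 14 windows of the 7 genes. A missing match says only that these letters are not in these windows.

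Values are on the log2 scale, and a difference is the mean of the USP48-labelled arrays minus that of the empty vector arrays. Probe sets were called at a limma adjusted p under 0.05 over all 54613 probe sets. USP48 itself was called higher by 0 of its 5 probe sets in limma (1 at an unadjusted p under 0.05), with differences from -0.82 to 0.24. The USP48 probe sets at -0.82 and -0.63 were called lower (limma adjusted p = 0.000130 and 0.000852). The one at -0.82 read 7.19, 6.94 and 7.05 in USP48-labelled arrays, against 7.88, 7.83 and 7.94 in vector arrays. The probe sets thus did not show a higher USP48 transcript level, and directions below belong to the arrays labelled USP48 overexpression. Array correlations over all probe sets were 0.995 to 0.996 within the USP48-labelled group, 0.996 to 0.997 within the vector group and 0.981 to 0.984 between groups. The 18 hybridization control probe sets averaged 10.09 ± 0.10 in USP48-labelled arrays and 9.79 ± 0.04 in vector arrays (SD, n = 3 each, exact permutation p = 0.1, the smallest 3 against 3 arrays allow). Scaling the arrays on these controls moved the median difference of all probe sets to -0.26, against 0.03 as deposited. The 24 poly-A control probe sets averaged 5.55 ± 0.24 in USP48-labelled arrays and 5.13 ± 0.13 in vector arrays (SD, n = 3 each). Their exact permutation p was also 0.1. The GAPDH 5′ minus 3′ difference, a measure of RNA integrity, was -0.51, -0.45 and -1.31 in USP48-labelled replicates 1 to 3, against -0.32, -0.37 and -0.44 in vector replicates 1 to 3. For ACTB it was far below 0 in all 6 arrays. It was -3.88, -3.44 and -4.14 in USP48-labelled replicates 1 to 3, against -3.26, -3.42 and -3.70 in vector replicates 1 to 3. The part of the hybridization controls, of the poly-A controls and of these 5′ minus 3′ differences in the results below was not tested. Of 7 measured hepatocyte markers, 0 were called by limma (1 at an unadjusted p under 0.05). ALB, APOA1, APOB and SERPINA1 lay below the median of all values (3.77) in both groups. TTR and TF lay above that median in both groups. AFP lay above it in USP48-labelled arrays and below it in vector arrays. Of 5 epithelial markers, 2 were called, EPCAM (-0.42) and CDH1 (-0.38), both lower; KRT8 and KRT18 averaged 10.57 and 11.80 in USP48-labelled arrays and 10.88 and 11.79 in vector arrays, while KRT19 and CDH1 lay below that median. Of 4 mesenchymal markers, FN1 was called higher (1.48, with a lowest probe set at 0.06) and CDH2 (-0.65) and VIM (-0.42) lower, and of 4 endothelial markers CDH5 was called lower (-0.42). The part of these marker differences in the results below was not tested. Of 8 measured leukocyte markers, 0 were called by limma (3 at an unadjusted p under 0.05), and their mean level ran from 3.19 to 3.31 in USP48-labelled arrays and from 3.05 to 3.12 in vector arrays. PTPRC, the pan-leukocyte marker, averaged 1.88 in USP48-labelled arrays and 1.96 in vector arrays. It was among 5 of the 8 that lay below the median of all values in both groups. CD3E (4.60 in USP48-labelled and 4.40 in vector arrays) and ITGAM (4.14 and 3.91) lay above it, and CD2 (3.86 and 3.58) on either side.

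Of the 20 member probe sets, 16 were called, 9 higher and 7 lower in the USP48-labelled arrays. Among all probe sets 24.3% were called, 10.6% higher and 13.8% lower. That share includes many dim probe sets, whereas 2 of the 20 lay below the median of all values in both groups. Of the 20, 7 belong to XIAP and 4 to TRAF4, so they are not independent. The groups did not overlap for 18 of the 20, against 38.2% of all probe sets. The median difference of the 20 was 0.26, beside 0.03 for all probe sets. At least a 2-fold change was called for 3 of them, the 2 probe sets of TRAF1 and 1 of TRAF3, against 3.57% of all probe sets. After scaling on the hybridization controls, 3 were called higher and 8 lower, beside 3.34% higher and 39% lower of all probe sets. Of all called probe sets 43.4% were higher as deposited and 7.9% after that scaling. In RNA of a whole culture, a change in every cell and a change in the share of cells that express a gene cannot be told apart. Without USP48-labelled replicate 3, whose GAPDH difference stood apart, the counts were 9 and 7, though not of the same probe sets. TRAF6 205558_at was then called higher (limma adjusted p = 0.0163) and XIAP 206537_at was not called (limma adjusted p = 0.0513).

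**Figure D1:**
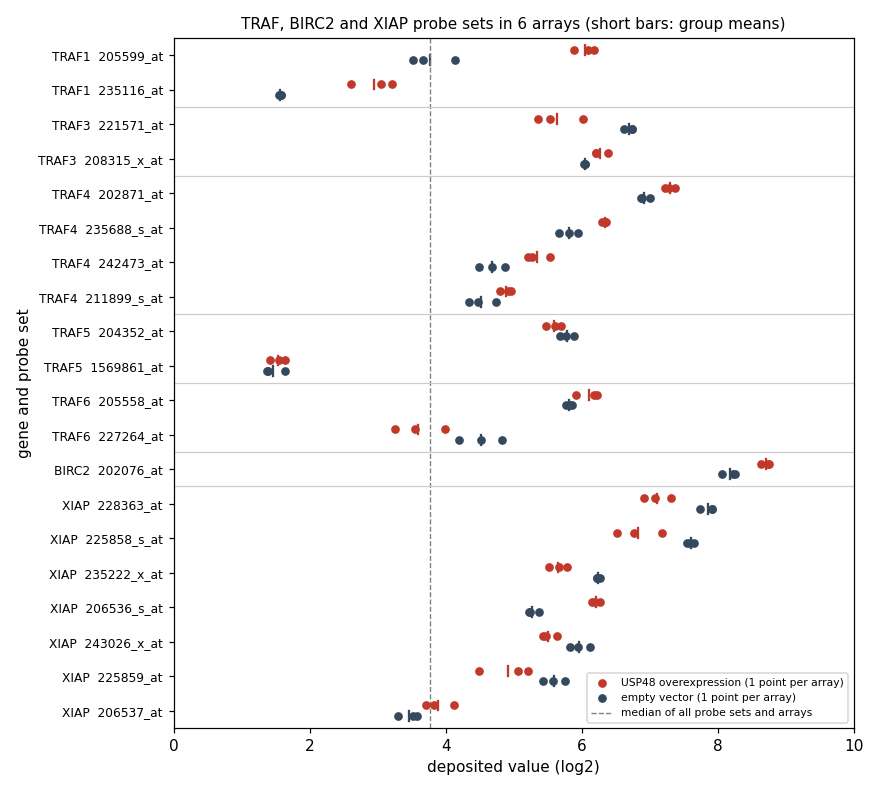
Deposited log2 values (x axis) of the 20 probe sets (rows), with 1 point per array, USP48 overexpression in red above empty vector in dark blue, and short bars at the group means. TRAF1 lies higher in all 3 USP48-labelled arrays, TRAF5 overlaps, and the 7 XIAP probe sets split, with 5 lower and 2 higher.

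TRAF1, an adaptor without the RING domain of its relatives and a known NF-κB target gene, rose in the USP48-labelled arrays. Its brighter probe set 205599_at read 5.89, 6.18 and 6.09 in USP48-labelled replicates 1 to 3, against 3.52, 4.14 and 3.66 in vector replicates 1 to 3. Every USP48-labelled array was above every vector array by a gap larger than the spread of either group. The log2 difference was 2.28 (SE 0.15, limma adjusted p = 4.11e-06), which is 4.85-fold. The vector values lie around the median of all values, and detection against background was not analysed, so the fold is one of deposited values only. The dimmer probe set 235116_at read 2.61, 3.21 and 3.04 in USP48-labelled arrays and 1.55, 1.57 and 1.57 in vector arrays. It lay below the median of all values in each of the 6 arrays, and its groups also did not overlap (log2 difference 1.39, limma adjusted p = 4.35e-05). Both calls remained after scaling on the hybridization controls, at 1.98 and 1.09, and with each array left out. The difference for 205599_at then ran from 2.15 to 2.46.

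TRAF4, an adaptor linked to epithelial cell polarity and migration, was higher in the USP48-labelled arrays by all 4 of its probe sets. Its brightest probe set 202871_at read 7.23, 7.38 and 7.29 in USP48-labelled arrays, against 6.87, 7.01 and 6.88 in vector arrays. The groups did not overlap, with a difference of 0.38 (SE 0.09, limma adjusted p = 0.0123). Probe set 242473_at had the largest difference of the 4, 0.66 (limma adjusted p = 0.00296), with 5.26, 5.54 and 5.20 in USP48-labelled arrays and 4.49, 4.67 and 4.88 in vector arrays. Probe set 235688_s_at was at 0.53 (limma adjusted p = 0.00239) and 211899_s_at at 0.38 (limma adjusted p = 0.0346). None of the 4 had overlapping groups. The 211899_s_at call was lost without USP48-labelled replicate 1 or 2 or vector replicate 1 or 3 (adjusted p = 0.0931 to 0.128). After scaling on the hybridization controls 0 of the 4 calls held, and the differences were 0.08 to 0.36 and adjusted p 0.0574 to 0.614.

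BIRC2, which encodes the ubiquitin ligase cIAP1, also rose by its 1 probe set. Probe set 202076_at read 8.74, 8.64 and 8.76 in USP48-labelled arrays, against 8.22, 8.06 and 8.25 in vector arrays. All USP48-labelled values exceeded all vector values. The log2 difference was 0.54 (SE 0.09, limma adjusted p = 0.00173), or 1.45-fold, and it ran from 0.48 to 0.58 with single arrays left out. After scaling on the hybridization controls it was 0.25 (adjusted p = 0.109).

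XIAP, the IAP that blocks caspases directly, gave called differences in both directions. Its brightest probe set 228363_at read 7.07, 6.91 and 7.32 in USP48-labelled arrays, against 7.92, 7.74 and 7.92 in vector arrays, a difference of -0.76 (SE 0.12, limma adjusted p = 0.000781). All USP48-labelled arrays were below all vector arrays, and replicate 3 was the closest to the vector group. Probe set 225858_s_at read 6.76, 6.53 and 7.17 in USP48-labelled arrays and 7.65, 7.60 and 7.55 in vector arrays, a log2 difference of -0.78 (limma adjusted p = 0.00242). The other lower probe sets were 225859_at at -0.67, 235222_x_at at -0.59 and 243026_x_at at -0.45 (limma adjusted p = 0.0143, 0.00118 and 0.00974). The call of 225859_at was lost without vector replicate 1 (-0.58, adjusted p = 0.0665).

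The remaining XIAP probe sets were higher. Probe set 206536_s_at read 6.20, 6.27 and 6.15 in USP48-labelled arrays, against 5.37, 5.24 and 5.22 in vector arrays. That is a difference of 0.93 (SE 0.09, limma adjusted p = 3.86e-05), which stayed called after hybridization control scaling (0.64) and with each array left out (0.90 to 0.97). The dimmest, 206537_at, read 3.70, 4.12 and 3.83 in USP48-labelled arrays and 3.58, 3.29 and 3.52 in vector arrays. Its groups did not overlap (log2 difference 0.42, limma adjusted p = 0.0320), but the call was lost with the replicate block (adjusted p = 0.0637) and after hybridization control scaling (0.13, adjusted p = 0.472). It was also lost without USP48-labelled replicate 2 or 3 or vector replicate 2 or 3 (adjusted p = 0.0513 to 0.132). Of the 6 member genes with several probe sets, XIAP was the 1 with called probe sets in both directions. Among all 10523 genes with several probe sets, 5.56% had this. A gene with more probe sets has more occasions for such calls, XIAP has 7, and the share was not matched for that number. Probe sets ending in _s_at or _x_at can match more than one transcript or gene, and the position of each probe set on the transcript is not known here.

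**Figure D2:**
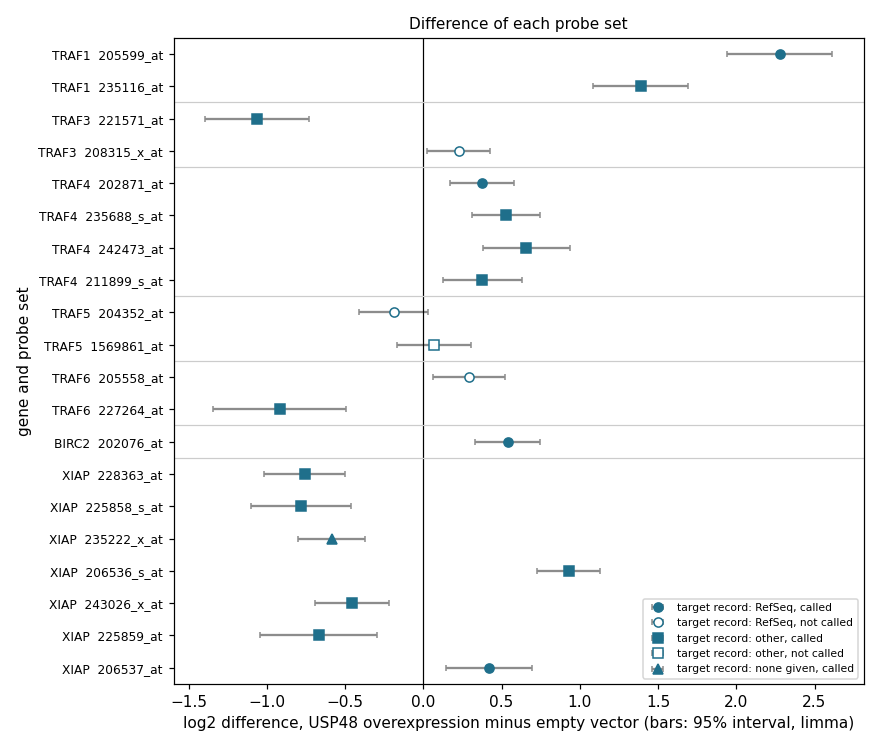
Log2 difference of each probe set (x axis, USP48 overexpression minus empty vector) with its unadjusted 95% limma interval; filled symbols were called at an adjusted p under 0.05, and the shape shows the kind of target record. XIAP holds 5 differences between -0.78 and -0.45 and 2 of 0.42 and 0.93, while the 4 of TRAF4 lie between 0.38 and 0.66.

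TRAF3, which restrains the non-canonical NF-κB pathway and takes part in antiviral signalling, fell by the brighter of its 2 probe sets, whose mean levels were nearly equal. Probe set 221571_at read 5.36, 5.53 and 6.02 in USP48-labelled arrays, against 6.62, 6.73 and 6.75 in vector arrays. The groups did not overlap, and replicate 3 lay nearest the vector group. The log2 difference was -1.06 (SE 0.15, limma adjusted p = 0.000444), a 2.09-fold lower value, and -1.26 without USP48-labelled replicate 3. Probe set 208315_x_at, at 6.22, 6.20 and 6.38 in USP48-labelled arrays and 6.04, 6.04 and 6.04 in vector arrays, did not pass although its groups did not overlap (0.23, limma adjusted p = 0.101). It passed after quantile normalization (0.29, adjusted p = 0.0351) and was at -0.07 after hybridization control scaling (adjusted p = 0.632).

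TRAF6, the adaptor of interleukin-1 and Toll-like receptor signalling, showed a similar split. Probe set 227264_at read 3.55, 3.25 and 3.98 in USP48-labelled arrays, against 4.82, 4.52 and 4.19 in vector arrays, a difference of -0.92 (SE 0.19, limma adjusted p = 0.00510). Its groups did not overlap, although the highest USP48-labelled value and the lowest vector value were close. Its mean in USP48-labelled arrays, 3.59, lay below the median of all values (3.77). The brighter 205558_at read 6.19, 6.22 and 5.91 in USP48-labelled arrays and 5.77, 5.86 and 5.82 in vector arrays, a difference of 0.29 that did not pass (limma adjusted p = 0.0682). It passed without USP48-labelled replicate 3 (0.39, adjusted p = 0.0163), after quantile normalization (0.35, adjusted p = 0.0386), with an intensity trend, without dim probe sets and in the fit over genes (adjusted p = 0.0478, 0.0456 and 0.0489), and was at 0.00 after scaling on the hybridization controls.

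TRAF5, an adaptor of CD40 and related receptors, was not called by either probe set. The brighter 204352_at read 5.61, 5.47 and 5.69 in USP48-labelled arrays and 5.68, 5.77 and 5.89 in vector arrays. The groups overlapped, and the difference was -0.19 with a 95% interval of -0.41 to 0.03 (limma adjusted p = 0.210). After scaling on the hybridization controls it was -0.48 (adjusted p = 0.00441). Probe set 1569861_at, below the median of all values in each array, was at 0.07 (95% interval -0.17 to 0.31).

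Whether probe sets of 1 gene changed alike was tested on the per-array difference of each probe set from the brightest one of its gene, fitted over 21316 such pairs. Of the 13 member pairs, 5 differed, beside 28.2% of all pairs. The 2 higher XIAP probe sets differed from 228363_at by 1.69 (206536_s_at, SE 0.15, limma adjusted p = 3.13e-05) and 1.18 (206537_at, limma adjusted p = 0.000580). The lower ones differed from it by -0.02 to 0.30, and their intervals all included 0. TRAF3 208315_x_at differed from 221571_at by 1.29 (limma adjusted p = 0.000103), TRAF6 227264_at from 205558_at by -1.21 (limma adjusted p = 0.00452) and TRAF1 235116_at from 205599_at by -0.89 (limma adjusted p = 0.00235). The TRAF1 pair shared a direction, and the other 4 pairs had opposite signs. The count of 5 was the same after quantile normalization, with an intensity trend, with the replicate block and with each array left out. This difference within a gene does not change when whole arrays are rescaled.

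**Figure D3:**
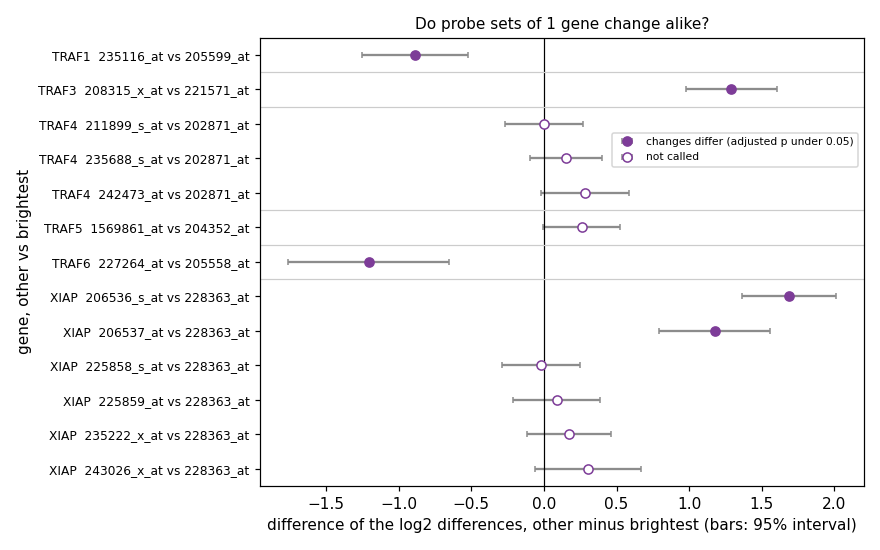
Difference between the log2 differences of 2 probe sets of 1 gene (x axis, other minus brightest, with unadjusted 95% intervals), filled where the adjusted p was under 0.05. TRAF3, TRAF6, TRAF1 and 2 XIAP pairs lie away from 0, and the 3 TRAF4 pairs lie between 0.00 and 0.28 with intervals that include 0.

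The annotation gives the sequence record from which most probe sets were designed, and the rule for members did not use it. In TRAF3 the probe set of a RefSeq record was at 0.23 and that of another record at -1.06, and in TRAF6 the values were 0.29 and -0.92. In XIAP the RefSeq probe set was at 0.42, beside a mean of -0.35 for the probe sets of other records, which include 206536_s_at at 0.93. TRAF1 had 2.28 for the RefSeq probe set and 1.39 for the other, while in TRAF4 (0.38 and 0.52) and TRAF5 (-0.19 and 0.07) the RefSeq probe set was the lower. Over the 4953 genes with both kinds, the RefSeq probe sets were above the others in 54.8%, with a median gap of 0.03. These are descriptions with no test.

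By the brightest probe set of each gene, 5 of the 7 measured members were called, TRAF1, TRAF4 and BIRC2 higher and TRAF3 and XIAP lower, beside 27.1% of 19775 genes. For TRAF3 the choice of the brightest was narrow, at percentile 79.75 of mean level for 221571_at and 79.62 for 208315_x_at. The latter was not called (0.23, limma adjusted p = 0.101), so the TRAF3 call by gene depends on that choice. The genes most like TRAF1 205599_at over the 6 arrays were ZNF101, SLC41A1, FLAD1, TXNIP and ZBTB25, with Pearson correlations of 0.998 to 0.999. Their log2 differences were far smaller, from 0.09 (ZNF101) to 0.88 (TXNIP), against 2.28 for TRAF1. The genes most like TRAF3 221571_at were MAPKAP1, ARFGEF3, MFSD6, GLTP and SPRING1, with correlations of 0.998 to 0.999 and differences of -1.61 to -0.63. With 2 groups of arrays, any gene that separates them has a high correlation, and 893 genes for TRAF1 and 795 for TRAF3 reached 0.95.

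Genes that act around the members were described by list, each gene by its brightest probe set. Of 76 measured genes in 8 lists, 24 (31.6%) were called higher and 8 (10.5%) lower, beside 14% higher and 13.2% lower among all 19775 genes, the shares against which each count below is read. After hybridization control scaling the shares among all genes were 4.64% higher and 36.1% lower. Of 18 receptors that bind TRAFs directly or through adaptors, 6 rose, beside 14% of all genes, and 0 fell, beside 13.2%. At an unadjusted p under 0.05 in limma the counts were 7 and 0. The median was 0.19, beside 0.05 for all genes. The RNA sensor TLR3 averaged 5.24 ± 0.14 in USP48-labelled arrays and 3.76 ± 0.15 in vector arrays (SD, n = 3 each), a log2 difference of 1.48, while the lowest difference of its 3 probe sets was 0.06. The TNF receptor TNFRSF1B was at 0.75, the TWEAK receptor TNFRSF12A at 0.72 and IL1R1 at 0.59 (limma adjusted p = 0.000330, 0.000246 and 0.00654). IL1R1 had another probe set at -0.21 and lost its call when all its probe sets were averaged and after hybridization control scaling (adjusted p = 0.122 and 0.0703), where 3 receptors rose. Of 10 measured ligands, the B cell factor TNFSF13B rose (0.84, limma adjusted p = 0.000429) and 0 fell (1 and 0 at an unadjusted p under 0.05), and the other TNFSF13B probe set was at 0.15. In vector arrays TLR3 (3.76), IL1R1 (3.36) and TNFSF13B (3.21) averaged below the median of all values (3.77). In USP48-labelled arrays they averaged 5.24, 3.95 and 4.05. TNF itself averaged 3.54 ± 0.36 in USP48-labelled arrays and 3.20 ± 0.15 in vector arrays (SD, n = 3 each) and did not pass (limma adjusted p = 0.161).

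Among 10 TRAF-interacting proteins, 3 rose and 2 fell (median 0.17), beside 14% and 13.2% of all genes, so the count of those that fell was close to that share. TDP2, a DNA end-processing enzyme first found as a TRAF-binding protein, was at 0.62 and TIFA, which activates TRAF6, at 0.53. TRAF3IP1 was at -0.47 and TRAF7 at -0.43, with other probe sets as high as 0.07 and 0.21, and the lowest TIFA probe set was at -0.02. With the mean of all probe sets TIFA, TRAF3IP1 and TRAF7 did not pass, nor did TIFA after hybridization control scaling (adjusted p = 0.111), or TRAF7 without USP48-labelled replicate 1 or vector replicate 2 (adjusted p = 0.0523 and 0.0598). Of 16 downstream kinases and ubiquitin factors, 5 rose, beside 14% of all genes, and 2 fell, beside 13.2%. Their median (0.06) was close to that of all genes (0.05). The linear ubiquitin ligase subunit RBCK1 was at 0.57, the kinase IKBKE at 0.57 and MAP3K14, which encodes NIK, at 0.52 (limma adjusted p = 0.000815, 0.00177 and 0.00675). The TAK1-binding protein TAB3 was at -0.65, with another probe set at 0.79 and a mean of all its probe sets at 0.18 (adjusted p = 0.120). After scaling on the hybridization controls, 0 of these 16 were called higher and 7 lower, close to the 4.64% and 36.1% of all genes under that scaling.

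Of 8 deubiquitinases of TRAF and cIAP pathways, 4 rose, beside 14% of all genes, and 0 fell, beside 13.2% (5 and 0 at an unadjusted p under 0.05 in limma; median 0.28). TNFAIP3, the NF-κB feedback inhibitor A20, averaged 8.29 ± 0.12 in USP48-labelled arrays and 6.10 ± 0.09 in vector arrays (SD, n = 3 each), a log2 difference of 2.19 (limma adjusted p = 5.35e-07). CYLD was at 0.88, OTULIN at 0.45 and OTUD7B at 0.34, and each had another probe set below 0 (-0.25, -0.94 and -0.64). USP48 itself is in this list and was not called by its brightest probe set (-0.13), while its probe sets at -0.82 and -0.63 were called lower. With the mean of all probe sets CYLD, OTULIN and OTUD7B did not pass, and 2 of the 8 rose and 1 fell. After hybridization control scaling 2 of the 8 rose, beside 4.64% of all genes, and 1 fell, beside 36.1%. The OTUD7B call was also lost without USP48-labelled replicate 1 or 2 or vector replicate 1 or 3 (adjusted p = 0.0614 to 0.141). Of 5 NF-κB subunit genes, 4 rose and 1 fell (median 0.36), beside 14% and 13.2% of all genes. RELB was at 1.40 and NFKB2 at 0.90, the partners of the non-canonical pathway, NFKB1 was at 0.36 and REL at -0.66. The lowest NFKB2 probe set was at -0.0011, and the highest REL probe set was at 0.15. After scaling on the hybridization controls 2 of the 5 rose and 1 fell, beside 4.64% and 36.1% of all genes under that scaling. The NFKB1 call was lost without any 1 array other than USP48-labelled replicate 1 (adjusted p = 0.0557 to 0.129).

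Of the 4 other measured BIRC genes, 3 fell, beside 13.2% of all genes, and 0 rose, beside 14%. The counts were 3 and 0 also at an unadjusted p under 0.05 in limma (median -0.81). NAIP, a sensor of bacterial proteins, was at -1.03, the mitotic survivin gene BIRC5 at -0.99 and BIRC6 at -0.63 (limma adjusted p = 0.000274, 0.000209 and 0.00396), and every probe set of these 3 genes was below 0. NAIP averaged 4.32 in vector arrays and 3.29 in USP48-labelled arrays, the latter below the median of all values (3.77). Of 5 measured IAP antagonists and caspases, XAF1, an interferon-induced XIAP-binding protein, rose and 0 fell (2 and 0 at an unadjusted p under 0.05 in limma). XAF1 averaged 7.40 ± 0.36 in USP48-labelled arrays and 3.73 ± 0.13 in vector arrays (SD, n = 3 each). The difference was 3.67 for this probe set and 0.65 for the lowest of the 3 XAF1 probe sets. The XAF1 vector mean lay just below the median of all values. DIABLO (0.27), CASP9 (0.04) and HTRA2 (0.00) did not pass (limma adjusted p = 0.125, 0.871 and 0.984). The receptor, ligand, interacting protein, kinase, deubiquitinase and antagonist lists had medians below 0 after hybridization control scaling (-0.24 to -0.01). The median of all probe sets, not only the brightest of each gene, was lower under that scaling, at -0.26.

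**Figure D4:**
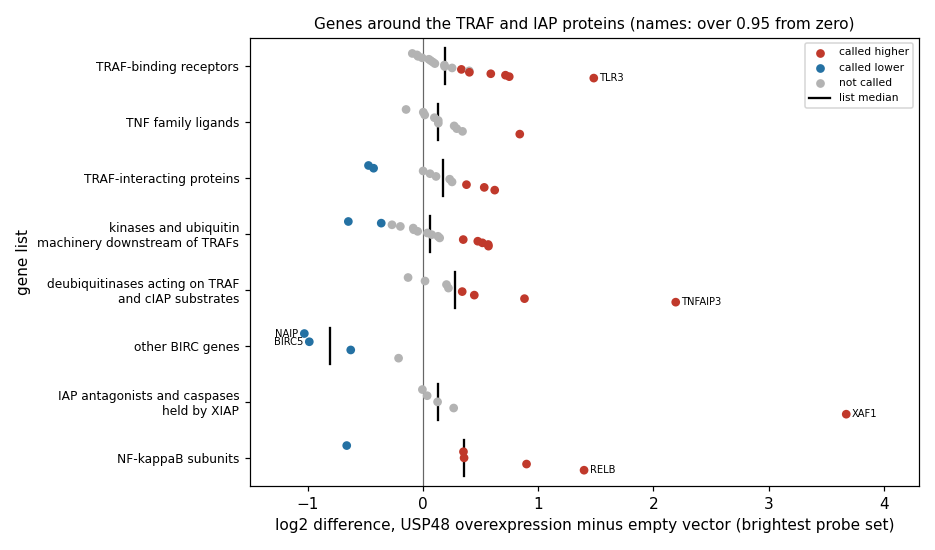
Log2 differences (x axis) of the genes in 8 lists around the TRAF and IAP proteins, 1 point per gene by its brightest probe set, red where called higher, blue where called lower, grey where not called, with black bars at list medians. XAF1, TNFAIP3, TLR3 and RELB lie farthest to the right, and NAIP and BIRC5 farthest to the left.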

How the data were processed

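The deposited table holds 1 log2 value per probe set and array, made by the authors; the submitters' processing notes name RMA, whose version and settings those sources do not give. RMA removes differences in total signal between arrays. Of 54675 probe sets, 62 were controls, 41091 named 1 gene, 1801 several and 11721 none; 41043 were matched to a RefSeq table (GRCh38.p14) and 0 symbols changed. No filter or further normalization was applied. Groups came from the sample titles. limma 3.58.1 in R 4.3.3 (lmFit, eBayes, two-sided, Benjamini-Hochberg) was fitted over all non-control probe sets and, for pairs within genes, over all pairs; both fits were tested on simulated data. The brightest probe set has the highest mean over 6 arrays. Alternatives were other normalizations, an intensity trend, a dim-signal filter, gene-level summaries, a replicate block, arrays left out and stricter limits. Up to 4 called genes per list, by size of difference, are named; TNF, DIABLO, CASP9, HTRA2 and the markers were named after their values were seen. The members, lists and alternatives were chosen with earlier results of these data known. Promoter sequences are RefSeq's, and all 7 measured genes matched. Figures used matplotlib 3.10.9 in Python 3.11.15. The number of arrays, 3 per group, limits the precision.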

Additional observations from a re-analysis of the deposited data

How the results depend on the processing

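The called count over all probe sets was 13287, and 23118 after scaling on the hybridization controls, 8356 at an adjusted p under 0.01 and 5899 with a limit of 1.5-fold. Member probe sets called higher numbered 9, against 3 after that scaling and 4 with the 1.5-fold limit, which also left 3 member genes by brightest probe set and 16 list genes, against 5 and 32. Calls were 43.4% higher as deposited and 7.9% higher after that scaling, which also turned TRAF3 208315_x_at to -0.0664, TRAF5 1569861_at to -0.22 and TRAF6 205558_at to -0.00266. With the mean of its probe sets TRAF6 was at -0.31 (adjusted p = 0.0321), since that mean includes 227264_at. With single arrays left out, 7 to 9 member probe sets were higher and 6 to 7 lower. Same-numbered arrays did not pair (correlations of deviations -0.02, 0.11 and -0.02); with the replicate block 12702 probe sets were called, with 8 members higher and 7 lower, and 206537_at of XIAP was the 1 member call lost. Other member calls held in that fit. The number of arrays, 3 per group, limits precision, and signal over background was not analysed.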
